A study of Mus musculus with 2 samples.

Results

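The genes described here encode cytochrome P450 enzymes and other enzymes of detoxification and redox balance, measured in mouse morulae after knockdown of leukemia inhibitory factor (LIF). They were taken as all gene spots of the array whose name begins with a word of a fixed set, such as cytochrome P450, glutathione, thioredoxin, metallothionein, aldehyde dehydrogenase or carbonic anhydrase. This gave 86 of the 8735 gene spots, each with a gene name of its own, while 0 spots began with NAD(P)H, monoamine oxidase or aldehyde reductase. B6CBF1 zygotes had been injected with LIF-siRNA or, as the control, with scrambled siRNA, and were cultured to the morula stage. The labels give an age of 4 d, whole embryos and a dose of 1.0 fmole for both siRNAs, while the study's methods give another dose. On each of 2 arrays the pooled RNA of LIF-siRNA-treated embryos carried the red dye Cy5 and that of scrambled-siRNA-treated embryos the green dye Cy3. The dyes were not swapped, so a dye effect of a spot and an effect of the siRNA cannot be told apart. The titles number the arrays as replicates, but a description among the labels speaks of untreated embryonic stem cells, and no source used here says that the pools of embryos were separate. The p-values below therefore measure only the spread between these arrays, which may be technical.

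Detoxification is usually described in steps. Cytochrome P450 and flavin monooxygenases oxidise a compound, dehydrogenases, reductases and hydrolases act on the product, and transferases attach glutathione or sulfate to it. The same tissue keeps its redox balance with glutathione, thioredoxin, superoxide dismutases, catalase and peroxidases, while metallothioneins bind zinc and copper through their cysteines. Most drug-metabolizing P450 enzymes are known from the liver, whereas the early embryo relies on a store of glutathione laid down in the oocyte.

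The array has 0 spots named leukemia inhibitory factor, so the targeted transcript was not measured. The mean signal exceeded its local background by a median factor of 4.83 to 6.60 in the 4 channels, and 0 gene spots were saturated. The markers of morula and blastocyst found by name (7 spots, among them Oct4, Sox2, Zfp42, E-cadherin and keratin 8) were well above background in every channel of both arrays. Of the markers of other cells, 4 of 4 spots of liver, 4 of 6 of blood, and 2 of 3 of cumulus, granulosa and oviduct were so as well. Their summed processed signals ranged from 1194 to 1725 for liver, from 1790 to 4266 for blood and from 410 to 1007 for cumulus, granulosa and oviduct, against 50219 to 62812 for morula and blastocyst. The cumulus, granulosa and oviduct sum was higher in Cy5 than in Cy3 on both arrays. The blood sum was lower in Cy5, which rests on 1 spot, embryonic hemoglobin X (Cy5 1610 and 1421, Cy3 3979 and 3439), while the median log2 ratio of the blood spots was -0.05. The sum of the morula and blastocyst markers was 50433 against 51889 on array 1 and 50219 against 62812 on array 2. Single markers of the morula and blastocyst differed in direction, with mean log2 ratios of -2.35 for Sox2, -2.17 for Elf3, -1.95 for keratin 8, -0.95 for Utf1 and -0.11 for Oct4, but 0.47 for E-cadherin and 0.35 for Zfp42. The median log2 ratio was -0.95 for the morula and blastocyst markers, 0.58 for those of liver and 0.93 for those of cumulus, granulosa and oviduct. The liver spots also differed in direction, at -1.32 for apolipoprotein A-I, -0.09 for transthyretin, 1.25 for apolipoprotein A-II and 1.95 for alpha fetoprotein. The value 0.93 is that of oviductal glycoprotein 1, beside 1.80 for inhibin beta-B. Inhibin beta-C had -0.98 but was not well above background in any channel. The part of other cells and of the stage of the embryos in the results was not tested. In pooled RNA, fewer cells of a type and less RNA per cell cannot be told apart.

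Of the 86 genes, 81 were compared, since on each array Cy5, Cy3 or both were well above background, and 71 were so in all 4 channels. The other 5 were cytochrome P450 1b1, 2a12, 3a25, P450 subfamily IV B polypeptide 1 and the gene named aldehyde dehydrogenase family 1 subfamily A4. The log2 ratio of LIF-siRNA to scrambled siRNA had a median of -0.05 over the 81 genes, with quartiles of -0.46 and 0.37. Over all 8079 probes compared the median was -0.0040, with quartiles of -0.40 and 0.39. The ratio was above 1 on both arrays for 29 of the 81 genes (35.8%, against 36.7% of all probes) and below 1 on both for 33 (40.7%, against 36.8%). These shares lay near those of all probes. A ratio above 2 on both arrays was found for 6 of the 81 genes, against 225 of the 8079 probes (2.78%). A ratio below 0.5 on both was found for 7 of the 81, against 245 of the 8079 (3.03%). In both directions this was a larger part of the genes than of all probes, and the difference was not tested.

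The methods of the study asked for a signal above 1000 together with a ratio that exceeded 2 or was less than 0.5. These criteria were applied here to the mean log2 ratio of both arrays and to the processed signal of either channel averaged over the arrays, a choice the methods do not state, so the genes called here need not be those the study called. By them 2 of the 86 genes were higher (2.33%, against 2.16% of all gene spots) and 5 were lower (5.81%, against 2.19%). In either direction 4.35% of all gene spots were called, and among spots past the signal threshold 5.33% were higher and 5.42% lower. The higher ones were heme oxygenase 1 and type I deiodinase. The lower ones were glutathione synthetase, glutathione S-transferase pi 2, metallothionein 1, metallothionein 2 and a pseudogene of thioredoxin peroxidase. The nearest genes outside the lower threshold were the glutathione S-transferase like gene (log2 ratio -0.97) and glutathione peroxidase 4 (-0.89), and metallothionein 2 lay just inside it at -1.06. Dropping the signal threshold gave counts of 9 and 8, where all the added genes lay at or below 1000 in both channels. The share of all gene spots at that setting was not counted, so these counts cannot be set against it.

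These criteria include no estimate of error. By limma, which tested whether each log2 ratio differed from 0, 0 of the 81 genes had a Benjamini-Hochberg adjusted p under 0.05, as did 0% of all probes. The smallest adjusted p among the genes was 0.058, which was also the smallest over all probes. Genes given this value are therefore tied at the lowest value of the adjustment and are not ranked by it. An unadjusted p under 0.05 was found for 15 genes with a higher ratio (18.5%, against 15.9% of all probes) and for 16 with a lower ratio (19.8%, against 14.8%). The methods' t-test also called 0 genes after adjustment, but its smallest adjusted p over all probes was 0.218, so its count adds nothing on these genes. The count of 0 depended on the normalization, the model of the variance and the probes tested. It was 7 of 81 under normexp background correction and loess, against 148 of all 8079 probes. These were glutathione synthetase, the pi 2 and mu 2 transferases, metallothionein 1, the pseudogene of thioredoxin peroxidase, heme oxygenase 1 and type I deiodinase. Each had an adjusted p of 0.0498 from limma, the smallest over all probes in that fit. The count was 18 of 81 with an intensity trend, against 1133 of all 8079 probes. When the fit was limited to probes with a signal above 1000, it was 10 of the 29 genes tested, where 18.7% of all probes were called.

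**Figure D1:**
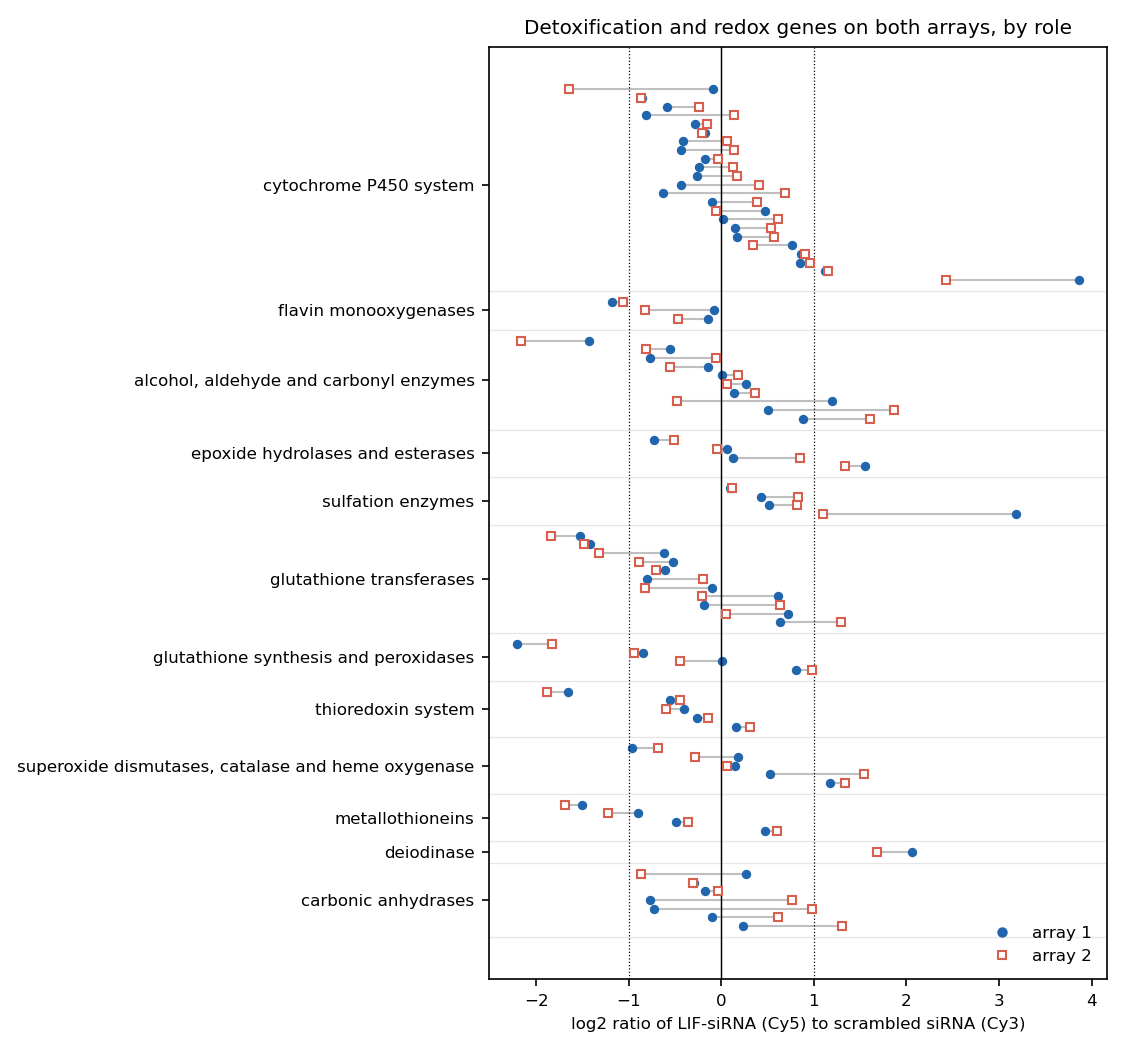
Log2 ratio of LIF-siRNA (Cy5) to scrambled siRNA (Cy3) on the x axis for the 81 genes compared, grouped by role on the y axis, with filled circles for array 1, open squares for array 2 and a grey line joining both. Dotted lines mark ratios of 2 and 0.5. Metallothionein 1 and 2, glutathione synthetase and most of the glutathione transferases lie left of 0 on both arrays, all 4 sulfation enzymes lie right of it, and the arrays differ in sign for 4 of 7 carbonic anhydrases.

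The genes past the signal threshold are described apart, since the criteria can call no others. The threshold takes either channel, so the ratio itself can decide which genes pass: 4 passed through Cy3 alone and 2 through Cy5 alone. There were 29 of them, with a median log2 ratio of -0.42, against 0.0021 over all 3527 spots past the threshold. Of these 29, 18 were lower on both arrays (62.1%, against 39%) and 7 were higher on both (24.1%, against 39.8%). With the threshold set instead on the mean of both channels, chosen after seeing the data, 27 genes passed, with a median of -0.35 against 0.00051 over all 3244 such spots. Of these, 16 were lower on both arrays (59.3%, against 38.5%) and 7 higher on both (25.9%, against 39.2%). By that threshold 2 genes were higher and 4 lower by the stated ratios, the pseudogene of thioredoxin peroxidase being the one lost. The 29 genes past the threshold in either channel included 5 of 5 of the thioredoxin system, 4 of 11 glutathione transferases, 4 of 11 alcohol, aldehyde and carbonyl enzymes and 3 of 27 of the cytochrome P450 system. They also included 3 of 4 spots named metallothionein, which were metallothionein 1, metallothionein 2 and the metallothionein-I activator. Further ones were 3 of 4 enzymes of glutathione synthesis and peroxidation and 3 of 5 of the superoxide dismutases, catalase and heme oxygenase. Each of 4 other roles had 1.

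**Figure D2:**
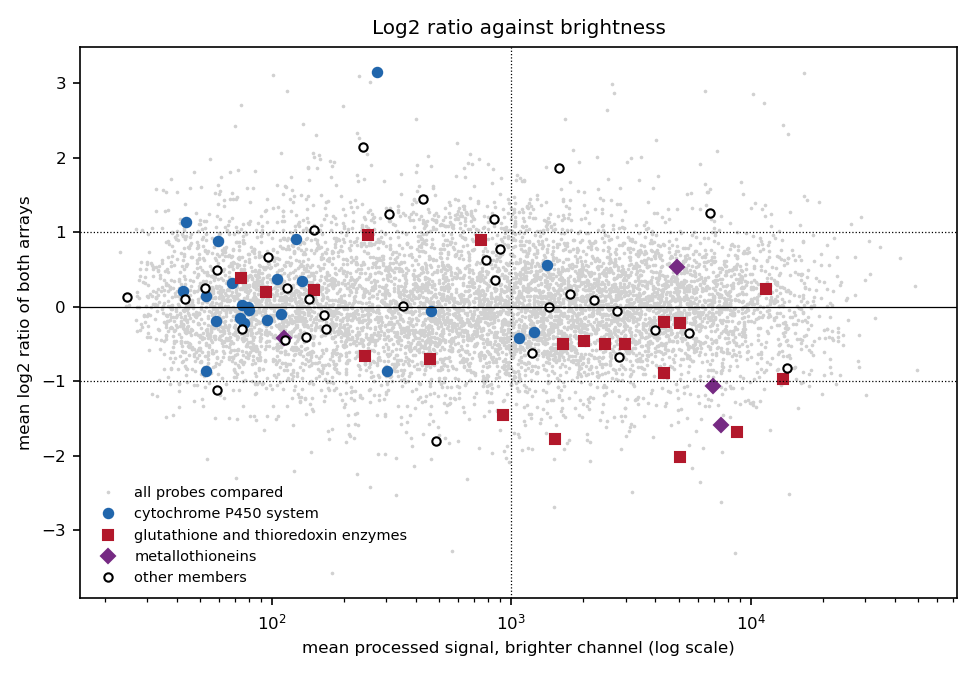
Mean log2 ratio of both arrays (y axis) against the mean processed signal of the brighter channel (x axis, log scale) for all probes compared (grey) and for the genes described here, coloured by role. Dotted lines mark a signal of 1000 and ratios of 2 and 0.5. To the right of the signal threshold most glutathione and thioredoxin enzymes and metallothionein 1 and 2 lie below 0, while most P450 genes lie to the left of it.

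Glutathione synthetase, which makes glutathione from gamma-glutamylcysteine and glycine, had the lowest ratio of the 81 genes. Its Cy5 signals after LIF-siRNA were 922 and 1671 (array 1 first, as in all pairs of values below). The Cy3 signals after scrambled siRNA were 4244 and 5921. Both Cy5 values lay below both Cy3 values. For this and later genes that were named for their ratio, such an order largely follows from the choice and gives no further support. It also ignores the pairing of the channels by array, and its share over all probes was not counted. The log2 ratio was -2.20 and -1.83, a mean of -2.01 ± 0.27 (SD, n = 2 arrays), a level 4.04-fold lower (adjusted p = 0.058 from limma). The enzyme before it in the pathway, glutamate-cysteine ligase, did not share this ratio. From the list of other genes of detoxification and redox, its catalytic subunit had log2 ratios of 0.62 and 0.58 (adjusted p = 0.135 from limma) and its modifier subunit -0.12 and 0.22.

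Among the glutathione transferases, which attach glutathione to reactive compounds, 7 of 11 genes were lower on both arrays and 2 were higher on both. All 4 transferases past the signal threshold were among the lower ones. Glutathione S-transferase pi 2 had Cy5 signals of 2515 and 2875, against Cy3 signals of 7217 and 10316. The groups did not overlap, and the log2 ratio was -1.52 and -1.84, a mean of -1.68 ± 0.23 (adjusted p = 0.058 from limma).

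Glutathione S-transferase mu 2 was closer still between the arrays. It had Cy5 signals of 269 and 407 and Cy3 signals of 720 and 1134, with log2 ratios of -1.42 and -1.48 (mean -1.45 ± 0.04, adjusted p = 0.0592 from limma). It missed the stated criteria because its mean Cy3 signal was 927. The related mu 1 gene had -0.61 and -0.71 and mu 5 had 0.72 and 0.05, a difference within the spread between the arrays. The pi and mu genes have near-identical relatives in the mouse genome, and a cDNA spot may also bind their transcripts. The glutathione S-transferase like gene had -0.62 and -1.32, and zeta 1, which isomerizes maleylacetoacetate in the breakdown of tyrosine, -0.52 and -0.89. On the other side, theta 1 had 0.64 and 1.29.

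Glutathione peroxidases reduce peroxides with glutathione, and the 3 genes of this kind differed from each other. Glutathione peroxidase 4, which acts on lipid peroxides in membranes, had Cy5 signals of 2450 and 2259 and Cy3 signals of 4386 and 4342, a mean log2 ratio of -0.89 ± 0.07. Both Cy5 values were below both Cy3 values. Glutathione peroxidase 2, an enzyme known from the gut epithelium, had the opposite sign, with 0.81 and 0.98. Glutathione peroxidase 1, the cytosolic enzyme, had 0.0059 and -0.45, a difference within the spread between the arrays.

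The thioredoxin system reduces disulfides in proteins and feeds the peroxiredoxins. Of its 5 genes, 4 were lower on both arrays. Thioredoxin had a mean log2 ratio of -0.50 ± 0.08, thioredoxin reductase 1, which recycles it, -0.50 ± 0.14, and mitochondrial thioredoxin -0.20 ± 0.08. None of these reached a ratio of 0.5. The thioredoxin-like 32kD gene had 0.23 ± 0.11. The spot named thioredoxin peroxidase pseudogene 1 stood apart, with Cy5 signals of 475 and 415 against Cy3 signals of 1501 and 1531, and log2 ratios of -1.66 and -1.88 (adjusted p = 0.058 from limma). Thioredoxin peroxidase is the older name of a peroxiredoxin, and the spot of a pseudogene may bind the transcript of its parent gene. The 4 peroxiredoxins of the list of other genes were lower on both arrays as well, with peroxiredoxin 2 at -1.56 and -1.68, 1 at -0.91 and -0.37, 4 at -0.81 and -0.60 and 5 at -1.10 and -0.39.

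Superoxide dismutases convert superoxide to hydrogen peroxide. Mitochondrial superoxide dismutase 2 had Cy5 signals of 7292 and 8771 and Cy3 signals of 14246 and 14110. Its groups did not overlap, and the mean log2 ratio was -0.83 ± 0.20 (adjusted p = 0.0964 from limma). The cytosolic superoxide dismutase 1 had 0.52 and 1.54, from Cy5 signals of 126 and 175 against Cy3 signals of 88.0 and 60.1, and its mean of 1.03 was 0.51 under normexp and loess. The extracellular superoxide dismutase 3 had 0.15 and 0.06. Catalase, which removes hydrogen peroxide in peroxisomes, had 0.18 and -0.28, from Cy5 signals of 2867 and 2447 and Cy3 signals of 2533 and 2976. These overlapped, and the mean of -0.05 ± 0.33 was within the spread between the arrays.

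Heme oxygenase 1, the inducible enzyme that breaks heme down to biliverdin, iron and carbon monoxide, was the other gene of this role with the same sign on both arrays past the signal threshold, and its ratio was above 1. Its Cy5 signals were 6168 and 7291. The Cy3 signals were 2743 and 2883. Both Cy5 values lay above both Cy3 values. The log2 ratio was 1.17 and 1.34, a mean of 1.25 ± 0.12 or a 2.38-fold higher level (adjusted p = 0.0627 from limma).

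Metallothionein 1 and 2 are small zinc-binding proteins whose genes are induced by zinc through metal response elements. Metallothionein 1 had Cy5 signals of 2722 and 2280, against Cy3 signals of 7709 and 7324. Metallothionein 2 had Cy5 signals of 3789 and 2941 against Cy3 signals of 7092 and 6854. For both genes each Cy5 value was below each Cy3 value. The log2 ratio of metallothionein 1 was -1.50 and -1.68 (mean -1.59 ± 0.13, adjusted p = 0.058 from limma) and that of metallothionein 2 was -0.90 and -1.22 (mean -1.06 ± 0.22, adjusted p = 0.0755 from limma). The coding sequences of both are alike, so a cDNA spot of 1 may bind the transcript of the other. Metallothionein 3, known from the brain, had -0.48 and -0.36 from signals between 71.9 and 124. The spot named metallothionein-I activator had the opposite sign, 0.47 and 0.60, with Cy5 signals of 5511 and 4295 against Cy3 signals of 3968 and 2831.

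Because metallothionein 1 and 2 were low together, their promoters are shown with the matches to the metal response element, beside that of metallothionein 3, which missed a ratio of 0.5. The sequences are those of RefSeq on GRCm38.p6, plus strand, from 250 bases before the annotated start of the gene to 50 bases from it on, and capitals mark every match to TGCACNC or TGCGCNC on either strand.
Metallothionein 1, chr8:94178839-94179138: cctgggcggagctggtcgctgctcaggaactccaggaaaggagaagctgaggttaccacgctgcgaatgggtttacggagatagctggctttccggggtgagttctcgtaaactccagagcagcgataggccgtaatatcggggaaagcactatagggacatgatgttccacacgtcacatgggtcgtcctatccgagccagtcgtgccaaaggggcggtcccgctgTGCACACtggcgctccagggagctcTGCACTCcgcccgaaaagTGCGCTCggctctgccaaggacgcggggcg
Metallothionein 2, chr8:94172368-94172667: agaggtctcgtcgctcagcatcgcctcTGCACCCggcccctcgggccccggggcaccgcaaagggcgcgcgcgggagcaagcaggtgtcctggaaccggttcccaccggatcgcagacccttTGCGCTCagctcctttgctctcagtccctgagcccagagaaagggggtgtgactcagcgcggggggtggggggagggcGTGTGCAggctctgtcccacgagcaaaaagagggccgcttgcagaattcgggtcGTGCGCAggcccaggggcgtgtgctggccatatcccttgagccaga
Metallothionein 3, chr8:94152357-94152656: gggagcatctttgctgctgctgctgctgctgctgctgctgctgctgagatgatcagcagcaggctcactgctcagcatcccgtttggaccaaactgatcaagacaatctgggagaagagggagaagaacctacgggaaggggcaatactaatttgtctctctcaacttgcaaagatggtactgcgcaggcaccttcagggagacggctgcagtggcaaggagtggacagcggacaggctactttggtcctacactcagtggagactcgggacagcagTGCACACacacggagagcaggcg

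The promoter of metallothionein 1 held 3 matches and that of metallothionein 2 held 4, against 1 in metallothionein 3. Of all 32851 promoters of the same length, 25.7% held at least 1 match and 1.97% held 3 or more. Of the 70 genes given a standard symbol by name, 56 had a promoter in the table. Only metallothionein 1 and 2 among them held 3 or more matches, and 17 held at least 1. The core of the antioxidant response element, TGACNNNGC on either strand, was found in the promoters of 6 of the 56 genes, and in 12.4% of all promoters. The 6 genes had mean log2 ratios of both signs, from superoxide dismutase 1 at 1.03 to metallothionein 2 at -1.06. A match describes the letters in this window and not a site in use. The windows follow the annotated start, and whether transcription starts there was not tested. Matches beyond the window were not counted, so the counts and positions hold for this window only.

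**Figure D3:**
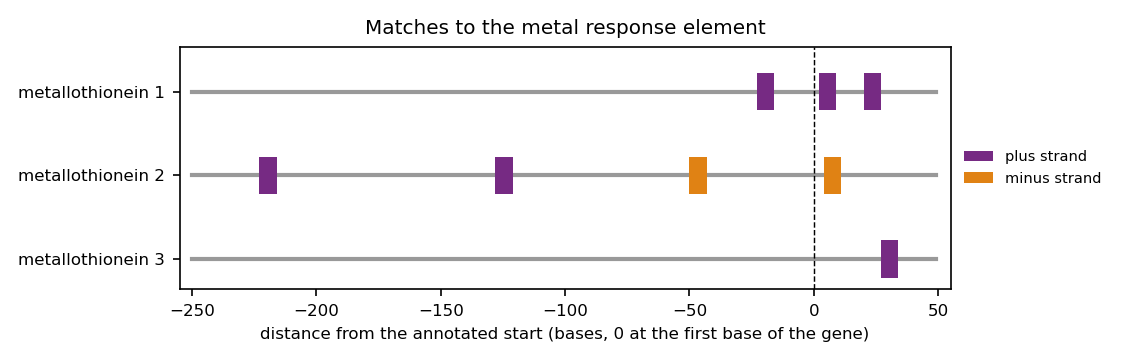
Position of the matches to the metal response element in the promoters of metallothionein 1, 2 and 3 (y axis) by distance from the annotated start in bases (x axis, 0 at the first base of the gene), with plus-strand matches in purple and minus-strand matches in orange. The grey line is the window searched. Within this window metallothionein 1 has its 3 matches between -23 and 26, while those of metallothionein 2 lie from -223 to 10. The annotated start was not tested as the site where transcription begins.

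The signals of the named genes in both channels and on both arrays show where a ratio rests on a dim channel. For glutathione synthetase, the pi 2 transferase, metallothionein 1 and 2, superoxide dismutase 2 and heme oxygenase 1, every channel was brighter than all 664 blank spots. Genes with a dimmer channel were found at both ends, such as P450 39a1 and PAPS synthase 2 among the highest ratios and alcohol dehydrogenase 1 and the mu 2 transferase among the lowest.

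**Figure D4:**
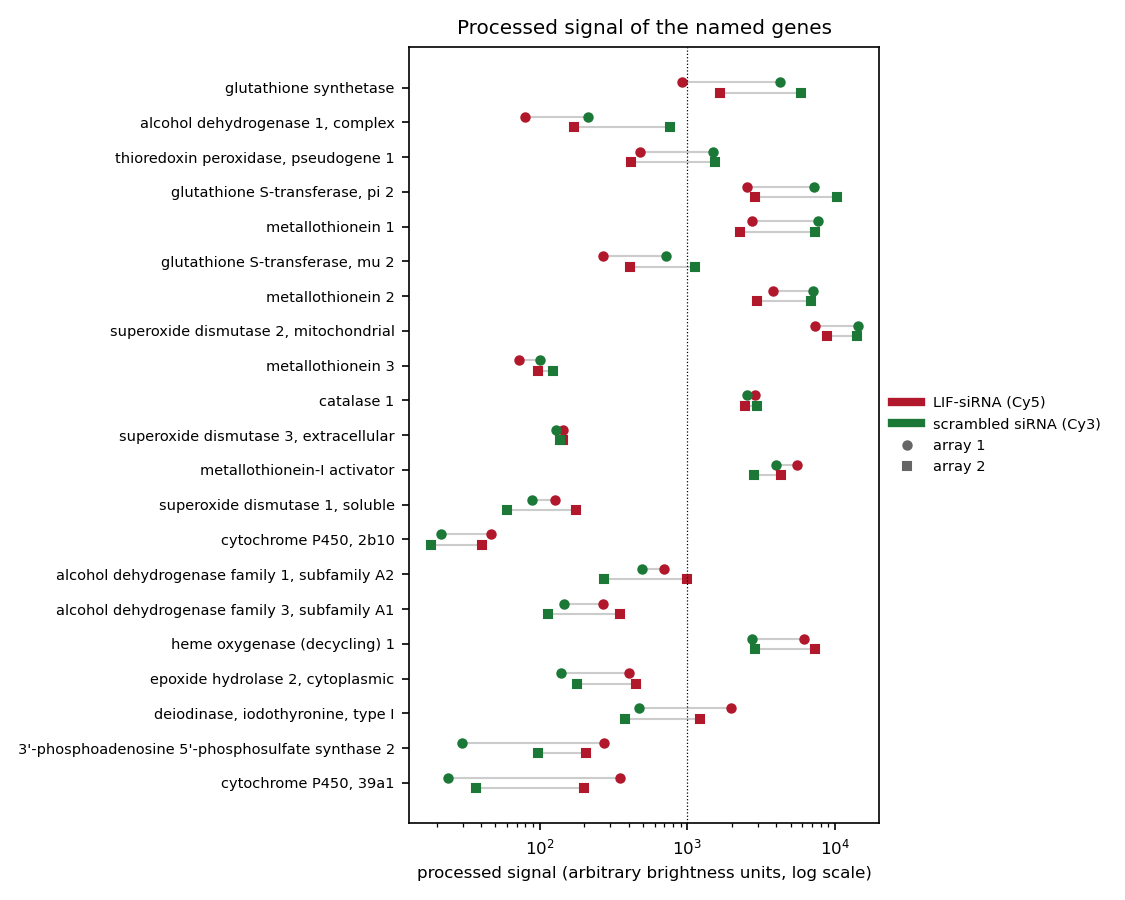
Processed signal on a log scale (x axis, arbitrary brightness units) of the 21 named genes (y axis, ordered by mean log2 ratio), with LIF-siRNA (Cy5) in red and scrambled siRNA (Cy3) in green, circles for array 1 and squares for array 2. The dotted line marks a signal of 1000. The red and green points of glutathione synthetase, metallothionein 1 and heme oxygenase 1 are apart on both arrays, while the green points of cytochrome P450 39a1 lie below 40.

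The cytochrome P450 system was the largest role, with 26 P450 genes and P450 oxidoreductase, the reductase that passes electrons to them. Of these 27 genes, 23 were compared and 17 were well above background in every channel. Their median log2 ratio was -0.01, with 8 genes above a ratio of 1 on each array, 6 below it on each and 9 of mixed sign. By the stated criteria 0 of 27 were called. Of the P450 genes known from the liver, some lay close to a ratio of 1, such as 3a11 (-0.18 and -0.03), 2d9 (-0.29 and -0.16), 4a14 (-0.17 and -0.21) and 2a4 and 2a5, which share a UniGene cluster in the files and cannot be told apart (-0.41 and 0.06, -0.26 and 0.17), while others such as 2b10, 2c40 and 1a2 lay further from it.

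Cytochrome P450 39a1, an enzyme that hydroxylates oxysterols on the way to bile acids, had a ratio above 1 on both arrays. Its Cy5 signals were 348 and 201, and its Cy3 signals 23.9 and 37.2. The Cy3 signal was well above background on array 2 alone, and exceeded that of 84.3% and 90.5% of the blank spots. The log2 ratio was 3.86 and 2.43, a mean of 3.15 ± 1.01 (adjusted p = 0.058 from limma), so that the value of array 1 and the mean rest on a channel not well above background. Under normexp and loess, where an offset shrinks ratios of dim spots, the mean was 1.43. It remained below the signal threshold in both channels. Cytochrome P450 7b1, which also acts on oxysterols, had 0.86 and 0.91, from Cy5 signals of 65.7 and 53.2 against Cy3 signals of 36.2 and 28.4. The second of these was not well above background, and under normexp and loess the mean was 0.30.

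Further P450 genes with the same sign on both arrays had smaller ratios. Cytochrome P450 2b10 had 1.13 and 1.16, but its Cy3 signal was not well above background on either array. With the lowest signal well above background in its place, the level in the deposited values was at least 1.75-fold higher after LIF-siRNA. This bound compares means of lowess- and Aquantile-normalized log2 signals per channel and can carry dye bias, since the dyes were not swapped. Under normexp and loess the log2 ratio was 0.22, and with no lowess 0.32, both below this bound, so it does not hold across the normalizations. Cytochrome P450 2c40 had 0.85 and 0.96, and its mean of 0.91 was 0.41 under normexp and loess. Cytochrome P450 2f2, known from the lung, had -0.86 on both arrays (adjusted p = 0.0892 from limma) and a mean of -0.60 under normexp and loess. P450 oxidoreductase had 0.77 and 0.34. Cytochrome P450 2e1, which oxidises ethanol, turned from -0.81 to 0.14, and cytochrome P450 26, which degrades retinoic acid, from -0.24 to 0.13. Cytochrome P450 1a2, which is induced by aromatic compounds, had -0.09 and -1.64, with the Cy5 signal not well above background on array 2.

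Flavin monooxygenases oxidise nitrogen and sulfur in foreign compounds. Flavin monooxygenase 5, past the signal threshold, had Cy5 signals of 3430 and 2996 against Cy3 signals of 3785 and 4154, with log2 ratios of -0.14 and -0.47. Flavin monooxygenase 1 had -0.08 and -0.83, so its spread was larger than its mean.

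The dehydrogenases and reductases of alcohols, aldehydes and ketones showed both directions, where 5 of 10 compared genes lay above a ratio of 1 on each array and 4 below it. Alcohol dehydrogenase 1, the classical ethanol dehydrogenase, had Cy5 signals of 79.0 and 169 against Cy3 signals of 214 and 757. Its log2 ratio was -1.43 and -2.16, a mean of -1.80 ± 0.51 (adjusted p = 0.0596 from limma). The genes that the files name alcohol dehydrogenase family 3 subfamily A1 and family 1 subfamily A2 had means of 1.25 ± 0.52 and 1.18 ± 0.96. The second was at 0.50 and 1.86, so its spread was nearly as large as its mean. An aldehyde dehydrogenase on the array has the same form of name (family 1 subfamily A4). The names therefore do not settle whether both genes encode alcohol or aldehyde dehydrogenases. Mitochondrial aldehyde dehydrogenase 2, which clears acetaldehyde, had -0.55 and -0.81, and aldo-keto reductase AKR1C13 turned from 1.20 to -0.47. Alcohol dehydrogenase 5, which oxidises the glutathione adduct of formaldehyde, had -0.14 and -0.56, and carbonyl reductase 1 had 0.0075 and 0.18.

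Sulfation needs the donor PAPS, which the PAPS synthases make. All 4 genes of this role were higher on both arrays, and 0 of the 4 passed the signal threshold. PAPS synthase 2, the form known from cartilage, had Cy5 signals of 272 and 207 against Cy3 signals of 29.9 and 96.8. Its log2 ratio was 3.18 and 1.10, a mean of 2.14 ± 1.47 (adjusted p = 0.0901 from limma), so the size of the difference rests on array 1. Under normexp and loess the mean was 1.03. PAPS synthase 1, the broadly expressed form, had 0.43 and 0.83, from Cy5 signals of 645 and 921. The hydroxysteroid sulfotransferase 2 had 0.52 and 0.81, and SULT-X2, whose Cy3 signal was not well above background on either array, had 0.10 and 0.11.

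Of the hydrolases, soluble epoxide hydrolase 2, which opens epoxides of fatty acids, had Cy5 signals of 405 and 448 against Cy3 signals of 138 and 177. Both Cy5 values lay above both Cy3 values. The log2 ratio was 1.55 and 1.34, a mean of 1.44 ± 0.15 (adjusted p = 0.0596 from limma). The microsomal epoxide hydrolase 1 had 0.06 and -0.05. Esterase 31 had -0.73 and -0.51 and esterase 1 had 0.13 and 0.85, with the Cy3 signal not well above background on array 2.

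Type I deiodinase, the selenoenzyme that converts thyroxine to the active hormone, was the other higher gene past the criteria. Its Cy5 signals were 1960 and 1209, and its Cy3 signals 472 and 378, with no overlap. The log2 ratio was 2.05 and 1.68, a mean of 1.87 ± 0.27 or a 3.65-fold higher level (adjusted p = 0.058 from limma).

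Carbonic anhydrases, which interconvert carbon dioxide and bicarbonate, had the largest spread between the arrays among the roles. The sign differed between the arrays for 4 of 7 genes, and their SD had a median of 0.76, against 0.25 over all probes. Carbonic anhydrase 14 had Cy5 signals of 1008 and 1867 and Cy3 signals of 1712 and 1096, so its log2 ratio turned from -0.76 to 0.77. Mitochondrial carbonic anhydrase 5b had 0.24 and 1.31. Carbonic anhydrase 4, a membrane-bound form, repeated with -0.29 and -0.30.

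**Figure D5:**
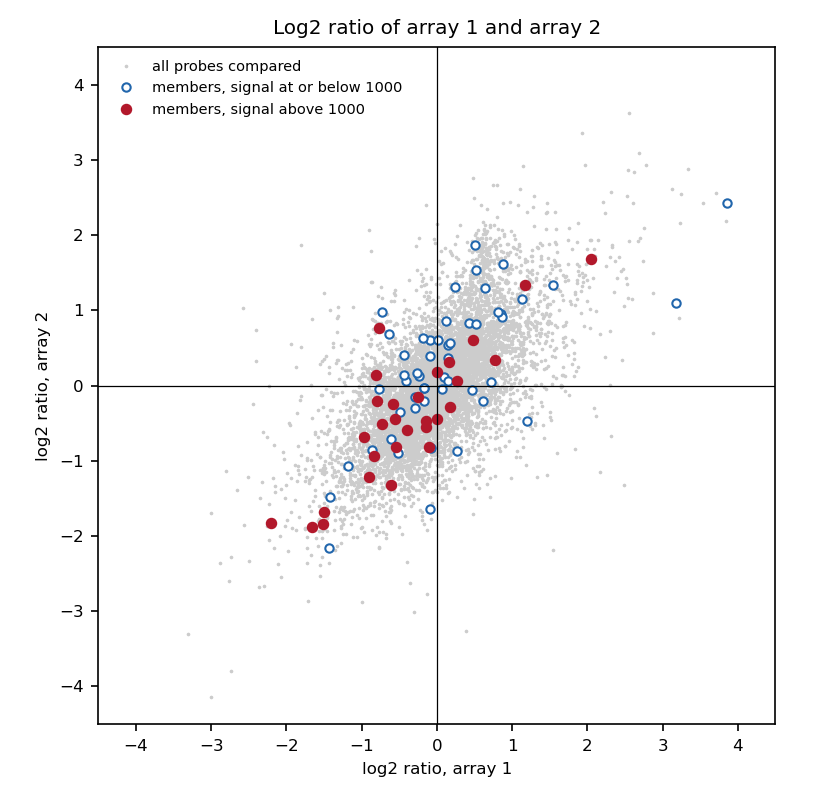
Log2 ratio of array 1 (x axis) against array 2 (y axis) for all 8079 probes compared (grey), with the genes described here in red where the signal exceeded 1000 and in open blue circles otherwise. Pearson r across genes was 0.74 for the 81 genes and 0.85 for the 29 past the signal threshold, and the group of red points at the lower left is glutathione synthetase, the pi 2 transferase, metallothionein 1 and the thioredoxin peroxidase pseudogene.

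Across the 81 genes the ratios of the arrays had a Pearson r of 0.74, against 0.64 for all 8079 probes, and 0.85 among the 29 genes past the signal threshold, against 0.76 for all such spots. These are descriptions across genes of the same arrays, which had the same dye orientation. The sign was the same on both arrays for 76.5% of the genes and 73.5% of all probes.

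The list of other genes of detoxification and redox (transporters, peroxiredoxins, glutamate-cysteine ligase, regulators and enzymes that supply NADPH) held 67 spots, of which 58 were compared. The median log2 ratio was 0.03, with 23 genes above a ratio of 1 on each array and 22 below it. By the stated criteria 3 were higher and 3 were lower (4.48% each, against 2.16% and 2.19%). By limma 0 of the 58 had an adjusted p under 0.05, and 13 in each direction (22.4%, against 15.9% of all probes for higher and 14.8% for lower) had an unadjusted p under 0.05. The lower genes past the criteria were peroxiredoxin 2, the transporter ABCA7 and erythroid aminolevulinic acid synthase 2, the first enzyme of heme synthesis (-1.35 and -0.99). The higher ones were the efflux transporters ABCB4, which moves phosphatidylcholine (1.89 and 1.47), and ABCG2 (1.21 and 1.17), and the transcription factor NFE2L3 (0.54 and 2.07). Of the 17 ATP-binding cassette transporters compared, 9 were above a ratio of 1 on each array and 5 below it.

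Regulators of these genes were also on the array. KEAP1, which holds the antioxidant regulator NRF2 in check, had log2 ratios of -0.61 and -1.18 (adjusted p = 0.10 from limma). NFE2L1 had 0.57 and -0.11. The pregnane X receptor (nuclear receptor subfamily 1 group I member 2), which induces P450 genes in the liver, was too dim to be compared.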

How the data were processed

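RNA of LIF-siRNA-treated (Cy5) and scrambled-siRNA-treated (Cy3) morulae was compared on 2 two-colour Agilent arrays of 9651 spots. The authors deposited a scanner file per array from Feature Extraction software of Agilent (version 7.5.1 per the file headers, where the methods name another). The deposited intensity columns hold the mean signal and local background of a spot and the processed signal, which the authors' software background-subtracted and dye-normalized. The deposited log10 ratio of Cy5 to Cy3 follows rank-consistent lowess, and dim spots with surrogate signals may be set to a ratio of 1. The deposited log2 table of the series follows the mean brightness of both channels (r of 0.998 on both arrays), with medians of 8.83 and 8.93, and not the ratio (r of 0.0121 and 0.0114), so it gave no alternative.

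Log ratios were converted to log2, and control spots and 23 outlier spots were left out. The 8079 probes with Cy5, Cy3 or both well above background on each array were tested with limma 3.58.1 in R 4.3.3 (lmFit and eBayes, intercept only, two-sided) with Benjamini-Hochberg adjustment. For the bounds, channel signals were rebuilt from the deposited log ratios and the processed brightness, with Aquantile between arrays, which leaves the ratios as they are. The stated criteria were a mean ratio above 2 or below 0.5 with a processed signal, averaged over the arrays, above 1000 for Cy5 or Cy3. Counts were made in pandas 2.3.3 and numpy 2.4.6 (Python 3.11.15), and plots in matplotlib 3.10.9.

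The named genes were those past the criteria, the 8 highest and 8 lowest ratios with the same sign on both arrays, all metallothioneins, superoxide dismutases, catalase, heme oxygenase and deiodinase, P450 39a1 and PAPS synthase 2, and further genes were named after their values had been seen. Another gene that this rule chose is not reported here, though counts over all genes include it. The members and lists were chosen with earlier results of these data known. Marker names that begin alike but are other genes were left out. The files hold gene names and no symbols, and promoters were found through the standard symbol of the name. The alternatives were other normalizations, filters, variance models and each replicate left out.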

Additional observations from a re-analysis of the deposited data

How the results depend on the processing

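By the stated criteria 2 genes were higher and 5 lower. Without the signal threshold, or with detection above background replacing it, 9 were higher and 8 lower. On single arrays between 2 and 3 were higher and between 4 and 7 lower. The shares of all gene spots at these settings were not counted. Under the other alternatives run, the counts stayed within 1.5 times. The number of genes called by limma was 0 and also 0 with no filter on dim probes, with outliers kept, with median centring (which changed nothing, as the medians were already near 0), and 0 by the methods' t-test. The number rose to 10 among probes with a signal above 1000, where 660 of all 3527 probes were called. It was 7 under normexp and loess (148 of all 8079 probes) and 18 with an intensity trend (1133 of 8079). It was 22 with the local background subtracted, no lowess and median centring (1534 of 8079). This last alternative was chosen after seeing the data, and the cause of its count was not tested. Under each of these settings the count over all probes rose from 0 as well. Each array alone leaves limma no residual degree of freedom. The median log2 ratio of the genes (-0.05) was -0.42 among probes with a signal above 1000, which holds fewer genes, -0.35 with the threshold on the mean of both channels, also chosen after seeing the data, and from -0.10 to 0.048 without replicate 1 or 2. The 21 named genes kept their sign under normexp and loess and with no lowess, while median centring left their values unchanged. Dim ones had smaller mean log2 ratios under normexp and loess, such as P450 39a1 (1.43 in place of 3.15), PAPS synthase 2 (1.03, 2.14), P450 2b10 (0.22, 1.14), superoxide dismutase 1 (0.51, 1.03) and metallothionein 3 (-0.20, -0.42). No paired analysis was possible because the arrays form 1 group, and the ratio of an array is already the paired difference. The precision is limited by the number of arrays and, for dim spots, by the signal over background.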
